A study of Mus musculus with 2 samples.

Results

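The loci described are 10 genes listed as astroglial, Gdf10, Hopx, Gfap, Aqp4, Aldh1l1, S100b, Aldoc, Fabp7, Gjb6 and Fgfr3, each taken as the gene body with 50 kb on either side. They were chosen by name and not by any value measured here, and are 10 of 21938 coding genes on chromosomes 1 to 19, X and Y. All 10 were found in the annotation, and their windows cover 1233 kb. The data are DNase-seq of whole cerebellum of B6CASTF1/J males aged 8 to 10 months, whose cells carry a B6 and a CAST genome, with neither a treatment nor a second tissue. There are 2 libraries, the biological replicates 1 and 2, each made from a pool of 2 biosamples. The labels do not say whether the pools came from separate animals, so differences between the replicates may be in part technical.

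Bergmann glia are the radial astrocytes of the cerebellar cortex. Their cell bodies sit in the Purkinje cell layer and their fibres span the molecular layer, where they take up glutamate and buffer potassium. Velate and fibrous astrocytes occupy the granular layer and the white matter. DNase I cuts DNA that is free of nucleosomes, so active promoters and enhancers appear as peaks of cutting, and a protein bound within such a peak can leave a short protected stretch, a footprint. In whole tissue, astroglial nuclei are mixed with the far more numerous granule neurons, and accessibility in few cells cannot be told apart from weak accessibility in many.

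The shorter of the authors' peak lists, here called the stricter, had 61776 entries for replicate 1 and 71141 for replicate 2, beside 314116 and 320832 footprints. The longer list did not hold every one of its peaks. Signal, the authors' value per peak, moved in whole steps within each library. The median peak held 196 and 152 steps. Signal ran higher in replicate 1, with a median log2 ratio of replicate 2 over replicate 1 of -0.41 over the shared peaks of the replicate 1 list. At all 10 granule cell genes of a marker list, both replicates showed a peak no farther than 1 kb from a transcription start site (TSS), as the tissue label would have it. Beside the 55.9% of all coding genes with a TSS peak in both replicates, the counts were 4 of 10 for Purkinje cell genes, 2 of 10 for oligodendrocyte genes and 0 of 10 for microglial genes, with 2 microglial genes in replicate 1 alone.

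The sequences shown are the exon-free bases of the peak at the gene start of the 4 genes with a TSS peak in both replicates, and the strongest peak shared by both replicates inside the bodies of Gfap and Aldh1l1. They hold some of the footprints of these loci, and the Hopx peak at an internal start is not shown. The intron stretches were chosen after their values were seen. Each is given 5′ to 3′ on the gene's own strand, from the RefSeq genome sequence of GRCm38, without any exon base. Capitals mark bases that lay in a footprint of both replicates.
Aldoc promoter, chr11:78322921-78322967, plus strand: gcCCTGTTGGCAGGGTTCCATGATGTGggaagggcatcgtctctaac
Fabp7 promoter, chr10:57784741-57784880, plus strand: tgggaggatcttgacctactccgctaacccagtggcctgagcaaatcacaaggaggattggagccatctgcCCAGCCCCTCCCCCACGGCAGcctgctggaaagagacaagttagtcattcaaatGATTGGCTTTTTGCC
Gfap promoter, chr11:102900913-102901120, minus strand: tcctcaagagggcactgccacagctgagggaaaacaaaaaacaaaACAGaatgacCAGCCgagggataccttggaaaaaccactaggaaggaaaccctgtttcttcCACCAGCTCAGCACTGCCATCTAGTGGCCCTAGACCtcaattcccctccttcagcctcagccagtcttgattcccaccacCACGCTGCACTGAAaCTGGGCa
Hopx promoter, chr5:77115161-77115359, minus strand: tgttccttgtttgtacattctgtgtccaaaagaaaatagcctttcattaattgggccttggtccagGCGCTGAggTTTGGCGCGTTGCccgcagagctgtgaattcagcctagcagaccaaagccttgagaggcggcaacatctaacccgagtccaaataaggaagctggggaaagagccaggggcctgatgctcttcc
Gfap intron, chr11:102898501-102898800, minus strand: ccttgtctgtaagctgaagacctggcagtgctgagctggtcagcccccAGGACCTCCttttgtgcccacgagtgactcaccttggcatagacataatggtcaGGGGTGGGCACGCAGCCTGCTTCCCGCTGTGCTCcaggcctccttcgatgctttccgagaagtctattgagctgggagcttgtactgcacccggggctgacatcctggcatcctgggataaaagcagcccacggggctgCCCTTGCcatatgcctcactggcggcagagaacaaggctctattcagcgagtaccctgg
Aldh1l1 intron, chr6:90515121-90515300, plus strand: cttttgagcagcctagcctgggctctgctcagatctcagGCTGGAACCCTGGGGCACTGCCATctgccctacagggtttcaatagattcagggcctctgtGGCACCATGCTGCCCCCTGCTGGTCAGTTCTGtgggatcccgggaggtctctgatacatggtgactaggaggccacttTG

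Chromatin was called open at the start sites of 4 of the 10 genes in both replicates, namely Aldoc, Gfap, Fabp7 and Hopx. Replicate 1 called 4 genes open at a start and replicate 2 called 6, with S100b and Gjb6 added. The background over all coding genes was 58.4% in replicate 1, 57.2% in replicate 2 and 55.9% for both. Gdf10, Aqp4, Aldh1l1 and Fgfr3 had none in either replicate. In the authors' longer peak list, the count for both replicates was 6 of the 10 genes, beside 60.5% of all coding genes. The addition of Aqp4 to that count rests on peaks at different internal starts, which did not overlap between the replicates. The open starts were mostly weak. The median signal of the strongest TSS peak, where a gene had one, was 2.24 for these genes in replicate 1 and 0.828 in replicate 2, against 4.83 and 3.38 for all coding genes. The first of these medians is over 4 genes and the second over 6, with the weak peaks of S100b and Gjb6 added. They are therefore not set against each other.

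Aldoc encodes aldolase C, a glycolytic enzyme of astrocytes that is also known as zebrin II and marks a striped subset of Purkinje cells. It is on chromosome 11 from 78322968 to 78327781, and its start-site peak had a signal of 5.45 in replicate 1 and 4.53 in replicate 2, averaging 4.99 ± 0.646 (SD, n = 2). Aldoc alone stood above the median of open coding genes, at the percentiles 56.0 and 63.9 of their TSS signals. The peak held 763 and 717 steps. If a step stands for 1 cut, the counting error is 3.62% and 3.74%. The peak runs from the last bases before the first exon into that exon. In the longer list a further peak at an internal Aldoc start had a signal of 1.48 and 1.08. The part of Purkinje cells in the Aldoc signal was not tested.

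Gfap encodes the glial fibrillary acidic protein, the intermediate filament of astrocytes, and is on chromosome 11 from 102887336 to 102900912. Its start-site peak had a signal of 2.78 and 1.61, a mean of 2.19 ± 0.824 (SD, n = 2), which put it at the percentiles 27.2 and 21.7 of open coding genes. Fabp7 encodes the brain lipid-binding protein of radial glia, on chromosome 10 from 57784881 to 57788450. Its signal was 1.71 and 1.21, a mean of 1.46 ± 0.348 (SD, n = 2). Gfap lay above Fabp7 within each replicate. The 2 genes are not compared across replicates, because signal ran higher in replicate 1. Hopx, a small homeodomain protein without DNA binding of its own and a marker of Bergmann glia, is on chromosome 5 from 77086988 to 77115121. It had 2 weak start-site peaks in each replicate. The one just before the gene start had a signal of 0.742 and 0.443, and the one at an internal start 19.9 kb into the gene had 0.642 and 0.417. That internal peak also lay at a start of the noncoding gene Hopxos.

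S100b, a calcium-binding protein of astrocytes and of oligodendrocyte lineage cells, is on chromosome 10 from 76253853 to 76261159. It had a start-site peak of signal 0.424 in replicate 2 and none in the stricter list of replicate 1, where the longer list held a peak of 0.642. Gjb6 encodes connexin 30, a gap junction protein of astrocytes, on chromosome 14 from 57123303 to 57133611. Its peak of signal 0.291 in replicate 2 had its middle 1.38 kb into the gene, near an internal start, and replicate 1 had none in either list. Aqp4, the water channel of astrocyte endfeet, is on chromosome 18 from 15389496 to 15410982. Only the longer list held peaks at its starts, of 0.364 in replicate 1 and 0.247 in replicate 2, both near internal starts. At Gdf10, Aldh1l1 and Fgfr3, neither list had a TSS peak in either replicate.

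**Figure D1:**
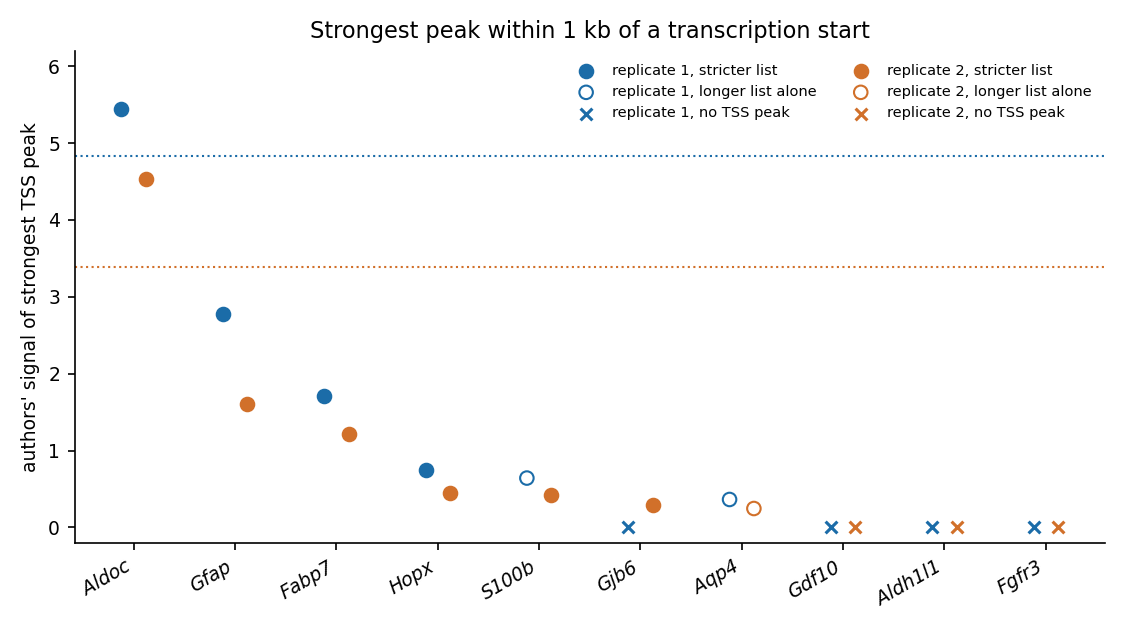
The vertical axis is the authors' signal of the strongest peak within 1 kb of any start of each gene, in both replicates. Filled points are from the stricter list, open points are genes with a peak in the longer list alone, crosses at 0 have no TSS peak, and the dotted lines are the medians over all coding genes with a TSS peak, at 4.83 for replicate 1 and 3.38 for replicate 2. Aldoc is the single gene above its line in either replicate.

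The table of false discovery rates (FDR) for the local cut rate gave the same division, which is no separate evidence. Each stricter peak in these windows held a base of FDR under 0.001, so a start-site peak largely fixed this outcome. A base of FDR under 0.001 lay within 1 kb of a start in 4 of the 10 genes in replicate 1, beside 59.0% of all coding genes, and in 6 of the 10 in replicate 2, beside 57.9%. The lowest FDR at Aldoc was 2.48e-23 in replicate 1 and 1.81e-36 in replicate 2. At Gfap it was 3.94e-12 and 2.17e-11, and at Hopx 1.97e-08 and 5.12e-08. At Fabp7 it was 1.15e-07 and 2.57e-26, so that replicate 2 had the lower FDR although replicate 1 had the higher signal. S100b crossed the threshold in replicate 2 alone, with 0.00937 in replicate 1 and 0.000139 in replicate 2, and Gjb6 reached 0.000249 in replicate 2 at its internal start. For Gdf10, which encodes a growth factor of the BMP family and defines Bergmann glia (chromosome 14, 33923587 to 33937983), no base within 1 kb had an FDR under 0.05 in either replicate. The same held for Aldh1l1, the folate enzyme widely used to mark astrocytes (chromosome 6, 90486427 to 90600203). Fgfr3, a receptor tyrosine kinase for fibroblast growth factors (chromosome 5, 33721674 to 33737068), had 16 such bases in replicate 1 with a lowest FDR of 0.0383, and none in replicate 2. Of the 2 genes taken here to define Bergmann glia, Hopx was thus weakly open at its start and Gdf10 was not called.

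**Figure D2:**
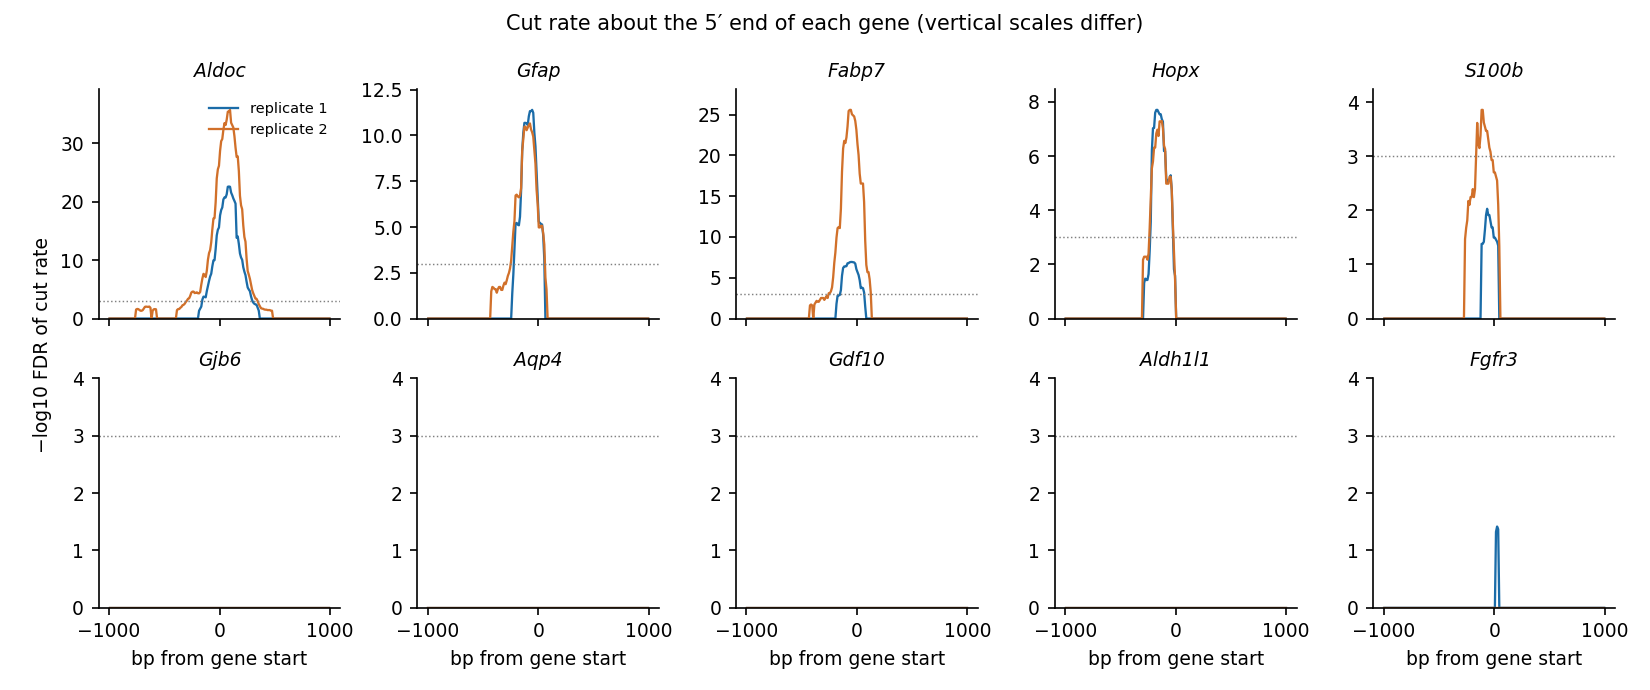
Each panel shows the −log10 FDR of the cut rate over 1 kb on either side of the 5′ end of a gene, in bp from the gene start with transcription to the right, as the highest value in bins of 10 bp. Bases of FDR 0.05 or more are drawn at 0, the dotted line marks FDR 0.001, and the vertical scales differ. Aldoc, Gfap, Fabp7 and Hopx cross the line in both replicates and S100b in replicate 2 alone, while the panels of Gjb6, Aqp4, Gdf10 and Aldh1l1 are empty.

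Promoters differ in their content of CpG dinucleotides, and CpG-rich promoters tend to be open in most cell types. The median ratio of observed to expected CpG within 500 bp of the gene start was 0.290 for these genes and 0.552 for all coding genes. Of the 10 genes, 8 had a ratio under 0.6, and 4 of these 8 had a TSS peak in both replicates, beside 28.4% of all coding genes under 0.6. The ratio was 0.228 at Aldoc, 0.235 at Gfap, 0.262 at Fabp7 and 0.489 at Hopx. The other 2 genes, Gdf10 at 0.740 and Fgfr3 at 0.684, were CpG-rich and had no TSS peak in either list, while 88.2% of all coding genes at 0.6 or more had one in both replicates. With 8 and 2 genes in the classes, the counts are a description.

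**Figure D3:**
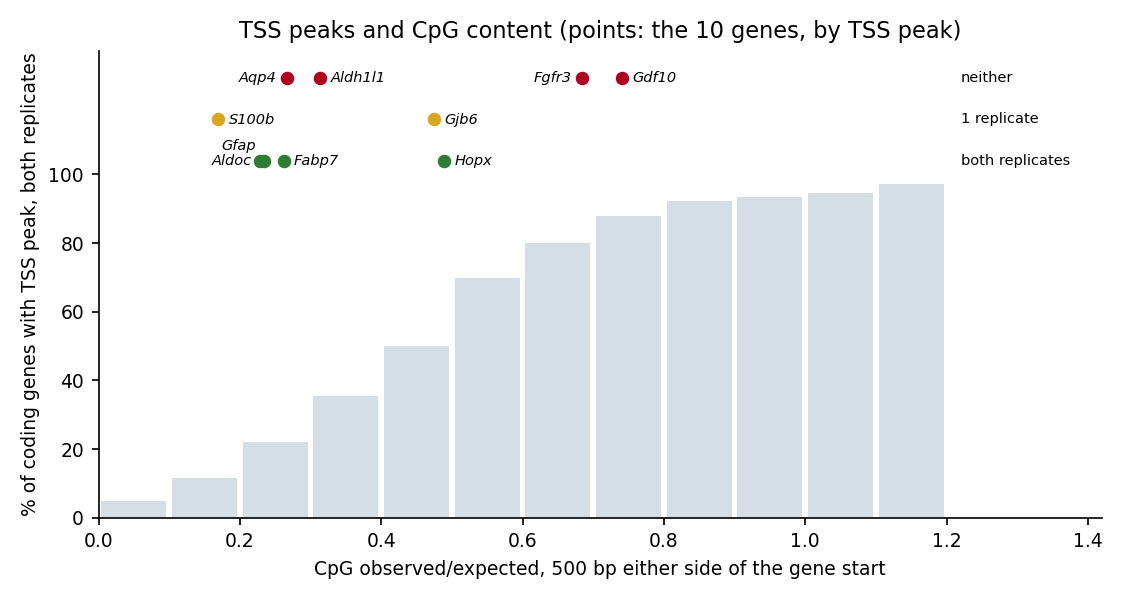
Bars give the percentage of all coding genes with a TSS peak in both replicates (vertical axis) by the observed over expected CpG ratio at the gene start (horizontal axis), with all ratios from 1.1 upward in the last bar. Points above the bars are the 10 genes at their own ratios, in rows by whether they had a TSS peak in both replicates, in 1 or in neither. Gdf10 and Fgfr3 lie in the range of ratios from 0.6 to 0.8, where most coding genes are open.

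The stricter list counted 41 peaks across the whole windows in replicate 1 and 59 in replicate 2. The median density was 2.14 and 4.53 peaks per 100 kb, against 3.59 and 4.05 for the windows of all coding genes, and 3 and 5 of the 10 windows lay above those medians. The order of the 2 medians therefore differed between replicates. Footprints numbered 226 and 227, with a median of 13.98 and 13.97 per 100 kb, against 19.4 and 19.2 for all coding genes. Bases of FDR under 0.001 numbered 14060 and 17412, with a median per 100 kb of 814 and 1333, against 1471 and 1620. Aqp4 had no peak in replicate 1 and 4 in replicate 2, while Fabp7 had 2 and 7 and Gjb6 had 1 and 6. The 7 of Fabp7 include an entry of 300 bp nested in another of 500 bp, at a start of Smpdl3a. Each was counted as a peak, here and in the 59, and each was counted as shared. Gfap had 8 and 9 peaks and Aldh1l1 13 and 14, the narrowest relative differences beside the 2 and 2 of Fgfr3.

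**Figure D4:**
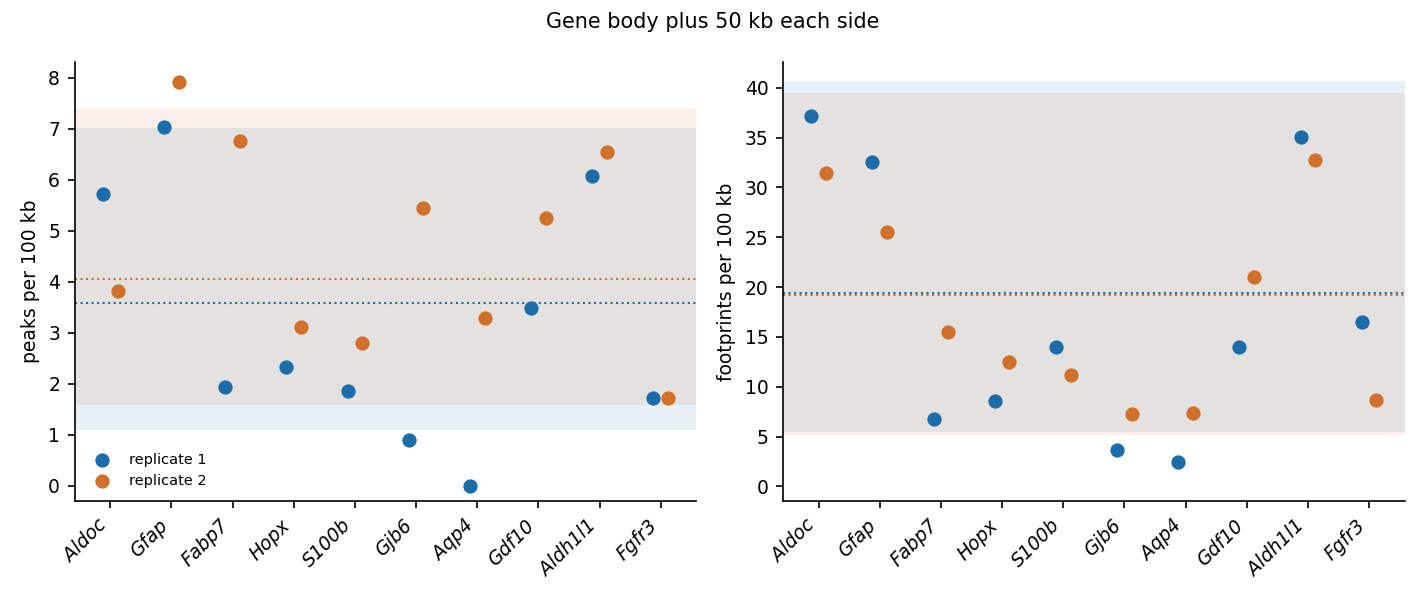
Peaks of the stricter list (left) and footprints (right) per 100 kb of each gene's window, which is the gene body with 50 kb on either side, in both replicates. Dotted lines and shaded bands are the median and the middle range between quartiles over the windows of all coding genes. Gfap and Aldh1l1 lie above the peak medians in both replicates, and Hopx, S100b, Aqp4 and Fgfr3 below in both.

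Of the window peaks, 36 of 41 in replicate 1 (87.8%) overlapped a peak of the other replicate, and 37 of 59 in replicate 2 (62.7%). Over all peaks the shares were 76.0% and 66.1%. No peak found in replicate 2 alone reached the median signal of its library. Every one of the 24 window peaks above that median overlapped a replicate 1 peak that was above the median of its own library. The same share over all peaks above the median is not given, so this is not read as a trait of these loci. The reverse did not hold for replicate 1. In its Aldoc window, peaks of 1.999 at a start of Unc119 and 1.877 in the body of Foxn1 were found in replicate 1 alone. Both were above the median of that library, 1.399. Over the shared window peaks of the replicate 1 list, the median log2 ratio of replicate 2 over replicate 1 was -0.57, beside the -0.41 of all shared peaks. By place, 5 peaks in replicate 1 and 7 in replicate 2 lay at a start of the listed genes, 8 and 11 elsewhere in their bodies, 13 and 17 at a start of another coding gene, 7 and 7 in the body of another gene, and 8 and 17 between genes. The median signal was highest at the starts of other genes in replicate 1, at 3.72, and in the bodies of the listed genes in replicate 2, at 1.72.

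At Aldh1l1 peaks were called inside the gene and none at its start. The stricter peak nearest to the gene start was 20514 bp away in replicate 1 and 20494 bp in replicate 2, and 6 intron peaks were shared by both. They lay 20.6, 28.8, 48.8, 51.7, 89.1 and 111 kb from the gene start in replicate 1. The strongest, at 28.8 kb, had a signal of 8.19 in replicate 1 and 4.06 in replicate 2, which ranked it at the percentiles 95.2 and 90.3 of all peaks in its library. It exceeded the start-site peak of every listed gene in replicate 1, and in replicate 2 it lay below that of Aldoc alone. The other 5 had signals between 1.77 and 3.77 in replicate 1 and between 1.45 and 2.33 in replicate 2. Upstream, 3 peaks lay at the start of Klf15, a Krüppel-like transcription factor gene, and downstream a peak of 5.02 and 3.52 lay at the start of Slc41a3, which encodes a magnesium transporter. An intergenic peak 36.1 kb upstream had 3.43 and 1.61.

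Gfap likewise had peaks inside the gene. The intron peak 2.26 kb from the gene start had a signal of 2.21 in replicate 1 and 1.72 in replicate 2, close to the 2.78 and 1.61 of the start-site peak, and the 2 peaks changed order between replicates. A peak over an exon 7.77 kb from the start had 1.62 and 1.30. The strongest peaks of the Gfap window were at neighbours. The peak shared by the starts of Ccdc103, a cilia assembly gene, and Eftud2, which encodes a spliceosomal GTPase, had 6.10 and 4.29. The peak at the start of the kinesin gene Kif18b had 5.35 and 4.11.

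The strongest peak of 3 further windows also belonged to the start of another gene. In the Aldoc window it was that of Pigs, a subunit gene of the GPI transamidase, with 10.1 in replicate 1 and 6.61 in replicate 2, 5.43 kb from the Aldoc start. In the S100b window it was that of the arginine methyltransferase gene Prmt2, with 3.72 and 2.16. In the Fgfr3 window it was that of Letm1, which encodes a mitochondrial inner membrane protein, with 6.57 and 4.52, 61.1 kb from the Fgfr3 start. In the stricter list the only other Fgfr3 window peaks were 1.06 in replicate 1, just past the end of the gene, and 0.588 in replicate 2, in the body of Tacc3. In the longer list each of these overlapped a peak of the other replicate, of 0.379 in replicate 2 and 0.692 in replicate 1. That list also held a shared Fgfr3 intron peak of 0.5425 in replicate 1 and 0.4109 in replicate 2, 4.68 kb from the gene start in replicate 1.

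The remaining windows held weaker peaks. At Gdf10 the strongest peak of replicate 1, 15.8 kb from the gene start and beyond its end, had 1.34 in replicate 1 and 0.601 in replicate 2, and the strongest of replicate 2, in the body of Rbp3, had 1.06 and 0.797. All 4 Gdf10 window peaks of the stricter list in replicate 1 were shared. The longer list also held shared peaks in a Gdf10 intron. The one 9.54 kb from the gene start had 0.835 in replicate 1 and 0.341 in replicate 2. The one at 10.5 kb had 0.607 and 0.392. At Hopx and Fabp7 the start-site peak was itself the strongest of the window. In the Gjb6 window the strongest peak of replicate 1, 27.8 kb upstream, had 0.60 in replicate 1 and 0.202 in replicate 2. The strongest of replicate 2, with 0.373, lay at the start of Gm4491. The 4 peaks of the Aqp4 window in replicate 2 had signals from 0.221 to 0.455, all below the library median of 0.961. In the stricter list none was shared. In the longer list the intron peak of 0.455 overlapped a replicate 1 peak of 0.4996, and an upstream peak of 0.2276 overlapped one of 0.2427.

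**Figure D5:**
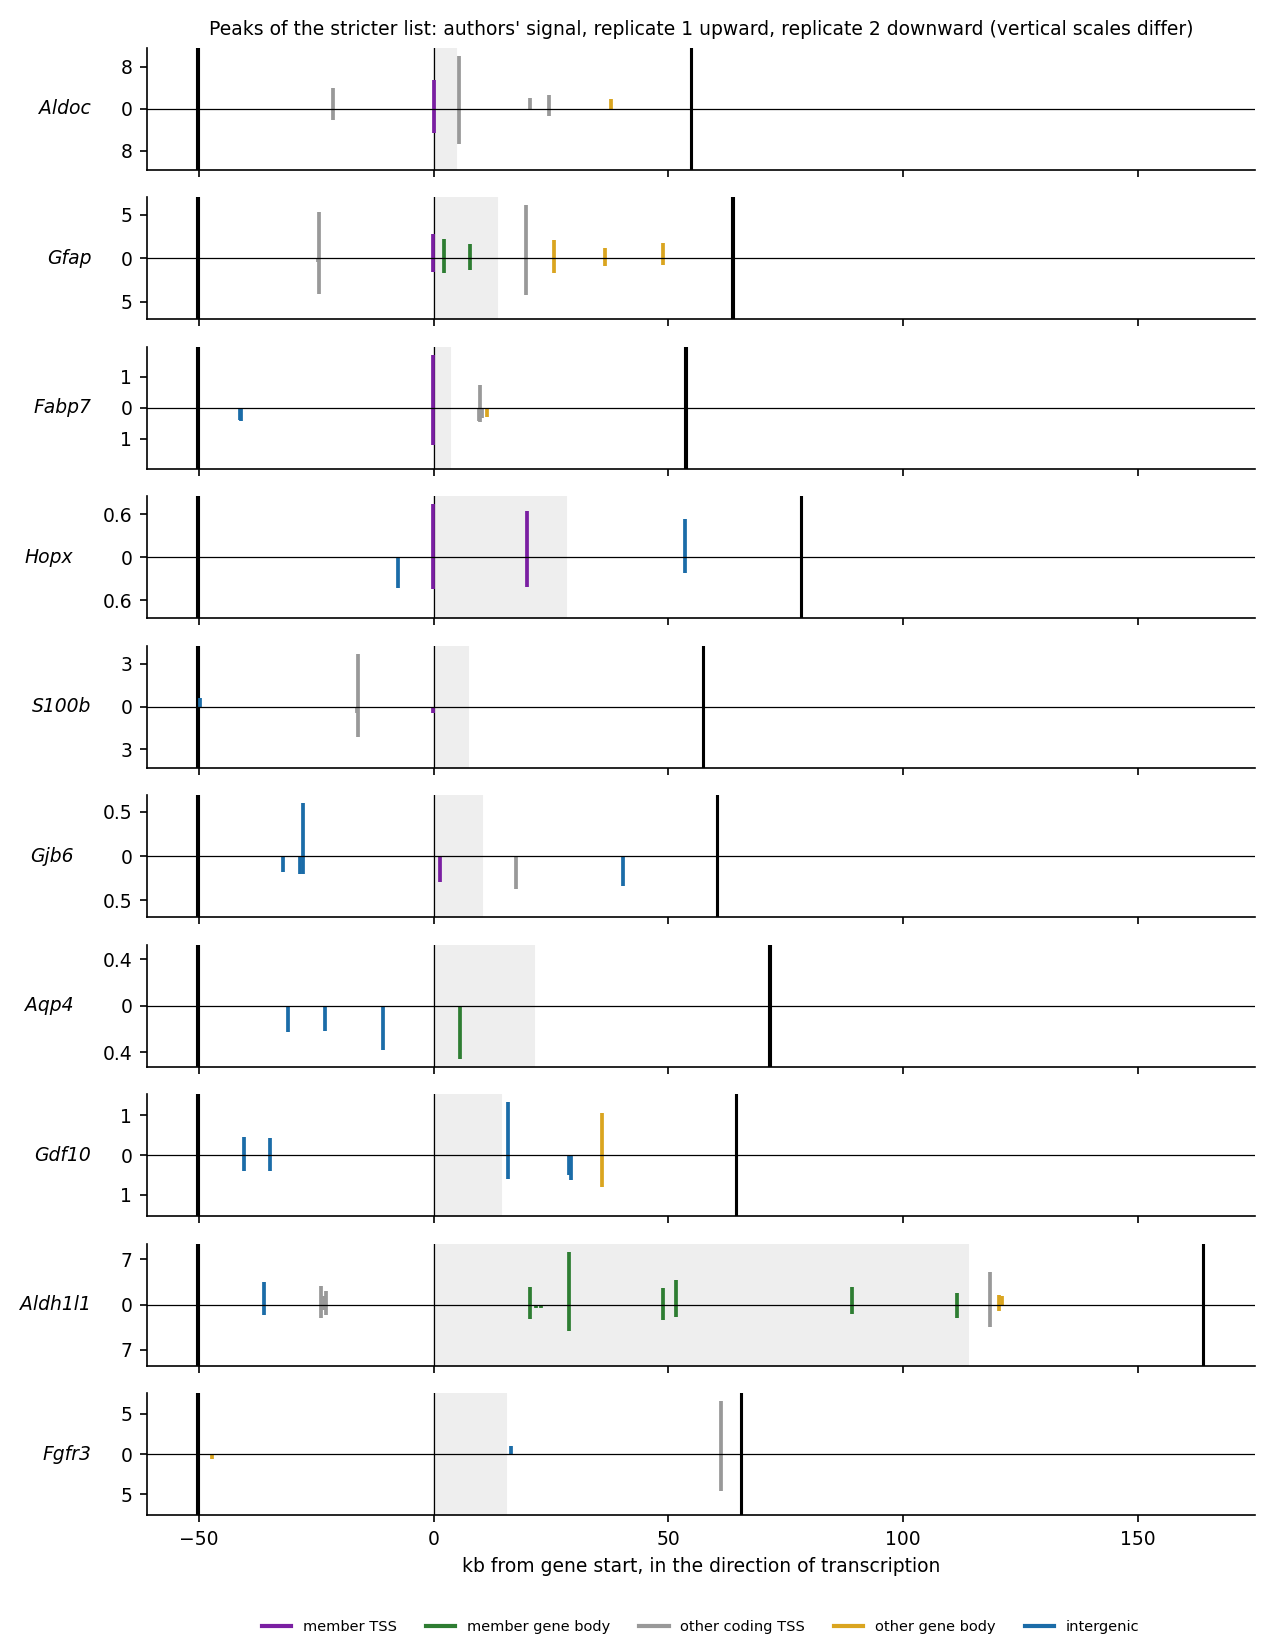
Each row is the window of a gene, with the distance from the gene start in kb along the direction of transcription, the gene body in grey and the window ends as black lines. Vertical lines are peaks of the stricter list at their middles, with the authors' signal of replicate 1 upward and of replicate 2 downward, coloured by place, on a scale that differs by row. Aldh1l1 has 6 intron peaks in both directions and none at its start, and the Aqp4 row is empty in replicate 1.

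Footprints were called in both replicates at 117 of 226 sites in replicate 1 (51.8%) and 119 of 227 in replicate 2 (52.4%), beside 51.0% and 50.6% of all footprints. Their median length was 11 bp, beside 10 bp for all. Inside stricter peaks lay 65.9% and 69.2%, beside 64.1% and 66.7%. Gfap had 26 shared footprints of 37 and 29, Aldoc 25 of 39 and 33, and Aldh1l1 43 of 75 in replicate 1 and 44 of 70 in replicate 2. Fabp7 had 2 of 7 and 16, Gjb6 1 of 4 and 8, and Aqp4 0 of 3 and 9.

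Motifs were searched as letters, on both strands and without mismatch, in 200 bp about the middle of each peak. TTGGCA, the core letters of nuclear factor I sites, a family with roles in glial differentiation, was in 7 of 41 window peaks in replicate 1 (17.1%) and 11 of 59 in replicate 2 (18.6%), beside 16.5% and 19.9% of all peaks. The STAT motif (TTC and GAA with 3 free bases between) was in 7.32% and 6.78%, beside 4.22% and 4.92%, and ACAAAG, letters of SOX sites, in 14.6% and 16.9%, beside 11.2% and 12.3%. CAGATG, an E-box of NEUROD1 and ATOH1, was in 14.6% and 11.9%, beside 19.5% and 22.2%. GTTGCC, letters of RFX sites, was in 17.1% and 18.6%, beside 9.48% and 9.59%. A degenerate CTCF consensus, which was added after the values were seen, was in 17.1% of window peaks in replicate 1 and 5.08% in replicate 2, beside 4.95% and 4.45% of all peaks. With 3 to 11 peaks behind most of these shares, they describe the letters in these peaks.

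In the printed stretches, with positions counted from 1 at the 5′ end, TTGGCA stood at 7 to 12 of the Aldoc promoter, where all 6 bases lay in a footprint of both replicates. The CTCF consensus stood at 120 to 133 of the Gfap promoter and at 110 to 123 of the Aldh1l1 intron, where in both cases all 14 bases lay in a shared footprint. In the Aldh1l1 intron it overlapped the ZIC letters CAGCAGG on the other strand, at 116 to 122. ATTGG, the CCAAT box read on the other strand, stood at 127 to 131 of the Fabp7 promoter with all 5 bases in a shared footprint, while the copies at 57 to 61 of the Fabp7 promoter and at 50 to 54 of the Hopx promoter had 0 bases in one. CCAAT, also added after the values were seen, was in 31.7% of window peaks in replicate 1 and 32.2% in replicate 2, beside 23.2% and 25.2% of all peaks. Among peaks away from coding starts the order was the opposite, with 3 of 23 window peaks in replicate 1 and 7 of 35 in replicate 2, beside 22.69% and 24.98% of all such peaks. GTTGCC stood at 84 to 89 of the Hopx promoter with 5 of its bases in a shared footprint, and its reverse complement at 135 to 140 had 0. In the Gfap intron, TGACTCA (AP-1 letters, 73 to 79), TTGGCA (82 to 87) and TTCCGAGAA (STAT letters, 155 to 163) lay outside the shared footprints. The AP-1 letters TGANTCA were in 1 of 41 window peaks in replicate 1 (2.44%) and 1 of 59 in replicate 2 (1.69%), beside 5.31% and 6.45% of all peaks. These were different peaks, that of the Gfap intron in replicate 1 and one of the Gjb6 window in replicate 2. CAGCAGG was in 22.0% and 18.6% of window peaks, beside 13.9% and 13.4%.

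Of a list of 21 other astroglial genes, set beside the 10, 11 had a TSS peak in both replicates, 2 in 1 replicate and 8 in neither, a share of both close to the 55.9% of all coding genes. The highest signals were at Nfia, a nuclear factor I gene, with 8.75 in replicate 1 and 8.77 in replicate 2, at Glul, which encodes glutamine synthetase, with 6.75 and 4.76, and at Id4, an inhibitor of bHLH factors, with 3.81 and 2.98. Acsbg1, an acyl-CoA synthetase gene, and Gja1, which encodes connexin 43, were among those without a TSS peak in either replicate. The longer list gave 16 of the 21 genes a TSS peak in both replicates, beside 60.5% of all coding genes.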

How the data were processed

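DNase-seq of cerebellum was deposited as 2 libraries of 1 group. For each, the authors deposited 2 peak lists with a signal (coverage) value per peak, a table of the FDR (q-value) of the local cut rate that lists values under 0.05 alone, and footprints, all with the same deposited FDR value of 0.01. The assembly was mm10 per the labels. The aligner, the peak caller and read numbers: not given in the sources used here. Each list came from a single library, per the deposited description of the files. Neither parental allele was resolved.

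Depth is unknown as reads. Signals below 100 steps were whole multiples, to within 0.05, of 1 step (0.00714 in replicate 1 and 0.00632 in replicate 2). Signal was compared between genes within a library, and the SD of a signal over the replicates includes the shift between libraries.

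Genes came from GENCODE mouse release 21. A TSS peak overlapped 1 kb either side of any transcript start by 1 bp or more, as did shared peaks each other. Sequences came from the GRCm38 RefSeq genome. All genes of the list are named, with their start-site peaks and strongest window peaks. Of the other astroglial genes, those named are the 3 highest and, of the first 3 in the alphabet without a TSS peak, all but 1 that is not reported here. Genes, lists, motifs (21, and 2 added later) and alternatives were chosen with earlier results of these data known. With 1 group of 2 libraries no test was made and no p-value computed. Counting and motif code was tested on simulated data. Python 3.11.15, numpy 2.4.6, pandas 2.3.3 and matplotlib 3.10.9 were used.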

Additional observations from a re-analysis of the deposited data

How the results depend on the processing

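The count of genes with a TSS peak in both replicates was 4, and lay between 3 and 6 under the 7 alternatives tried, with 4 for windows of 500 bp, of 2 kb and for the gene start alone, 6 for the longer peak list and 3 for peaks at or above the library median signal. With a single replicate it ranged from 4 to 6. The share of all coding genes was 58.4% in replicate 1, 57.2% in replicate 2 and 60.5% for the longer list. For the other alternatives no such share is given, so whether those counts are low or high cannot be told. The mean number of window peaks over both replicates was 50 ± 12.7 (SD, n = 2), from 41 to 59 in the single replicates. It was 81 with the longer list, 25.5 with peaks at or above the library median, 93 with 100 kb on either side and 14 in the gene bodies alone. The mean share of window peaks shared was 75.3%, and it was 94.4% for peaks at or above the library median, with no such share given over all peaks. The mean number of footprints was 226.5, with a single-replicate range of 226 to 227, and it was 446.5 with 100 kb on either side and 64 in the gene bodies. Bases of FDR under 0.001 averaged 15736, with a single-replicate range of 14060 to 17412, and numbered 32468.5 with 100 kb on either side and 26379 for FDR under 0.05. These follow from longer or shorter windows, the longer peak list, and looser or stricter thresholds. The other alternatives stayed within 1.5 times the counts, or within 1 SD of the share. That SD was 17.7 percentage points (n = 2), so it is a wide limit. When an overlap of at least 50% of both peaks was required, the mean share was 59.9%, with 70.7% in replicate 1 and 49.2% in replicate 2. The share thus depended on the overlap rule. No paired analysis was possible because there is 1 group.

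Limits of these data are the number of libraries, the unknown read depth, and the mixed tissue. Peaks of few steps were called in 1 replicate at several loci, and at Aqp4, Gjb6 and S100b the presence of a start-site peak depended on the replicate or the list. A peak not called was not detectable at this depth and is not shown to be absent.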
